A study of Brassica napus and Orychophragmus violaceus with 4 samples.

Results

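The genes of heat shock proteins (HSPs) and of the heat shock factors (HSFs) that switch them on were followed in petals of 4 plant materials, with 1 library each. The group was defined by 40 Arabidopsis genes, and every *B. rapa* gene of the read sheet whose Arabidopsis match was one of them was taken. This gave 75 *B. rapa* genes, here called copies, of the 37441 genes in the sheet. They stood for 34 of the 40 Arabidopsis genes: 8 of 12 small HSPs with 15 copies, HSP101 with 2, 5 of 7 HSP70s with 17, all 6 HSP90s with 13, all 11 HSFs with 25, and *ROF1*, *ROF2* and *MBF1C* with 3. No copy was matched to *HSP17.6A* (AT5G12030), *HSP17.4* (AT3G46230), *HSP17.8* (AT1G07400), *HSP21* (AT4G27670), *HSP70-3* (AT3G09440) or *BIP1* (AT5G28540).

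M4 is a *B. napus* line that carries all *B. napus* chromosomes and a pair of *O. violaceus* chromosomes, and its petals are red on a yellow ground. H3 is the parent of M4, *B. napus* cv. Huashuang 3, with yellow petals. OvP is *O. violaceus* with purple petals and OvW is a natural white-flowered mutant of that species. Petals were taken from partly open flowers of greenhouse plants, no heat treatment is named in the labels, and M4 is a single line. In bulk petal RNA, fewer cells of a type and less RNA per cell cannot be told apart.

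Heat shock proteins are chaperones that hold, refold or pull apart proteins that have lost their shape. Small HSPs keep unfolding proteins soluble, HSP101 frees proteins from aggregates, and HSP70 and HSP90 fold client proteins in the cytosol and, as separate members, in the endoplasmic reticulum (ER), chloroplast and mitochondrion. In Arabidopsis, class A HSFs activate these genes by binding short repeats in their promoters, and several class B HSFs repress them. Many members are best known from heat stress, but constitutive HSP70s and HSP90s serve all growing cells.

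Reads had been counted on *B. rapa* genes in all 4 materials, with totals of 15507389 (M4), 16447021 (H3), 1850787 (OvP) and 2040729 (OvW), so that a count of 0 is far less telling in *O. violaceus*. *B. napus* holds an A and a C genome, so a *B. rapa* copy can pool reads of both in M4 and H3. The copies of this group took 1.07% of the counted reads in M4 and 0.670% in H3, and 1.24% in OvP against 0.755% in OvW. The share was thus larger in the coloured petals of both species. Of the 75 copies, between 64 (OvP) and 70 (M4) had at least 1 read. The column of reads used for M4 carries only a code and was matched to M4 by its agreement with the level column that names M4 (median ratio 1.05 over 14978 genes). The petal identity genes *AP3*, *PI*, *SEP3* and *AP1* summed to between 6129 and 11691 RPKM (a level per length of gene, scaled to the reads of a library), against at most 46.9 for 6 anther and pollen markers and 20.4 for 6 carpel markers. Some of these markers were called too, all in the direction of less in the coloured petals: *SEP3* in both pairs (folds 0.482 and 0.487), and in M4 the pollen genes *PPME1* (2 reads against 38) and *VGD1* (122 against 221) and the carpel gene *SHP2* (77 against 222). Other markers of these lists were not called but had more reads in M4 than in H3, such as *AMS* of anthers (55 against 23) and *AG* of carpels (14 against 3). Markers of green tissue summed to 325 RPKM in M4 and 603 in H3, and to 650 in OvP and 1789 in OvW. Of these 6 markers, 3 were called lower in M4 and 4 lower in OvP, against 13.7% and 6.63% of all summed genes. They were thus lower where the HSP and HSF genes were more often higher. *RBCS1A*, of the small subunit of Rubisco, had 0 reads in all libraries but OvP, with 1 read. The part of these marker differences in the results below was not tested.

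Each coloured petal was compared with the uncoloured petal of its species, M4 with H3 and OvP with OvW. Folds are of reads after TMM scaling, which sets the bulk of genes equal within a pair. A gene was called where the exact binomial test of edgeR gave a p of 0.01 or less and the reads differed by 2-fold or more either way. With 1 library per material the test compares libraries and has no replicate check, and the intervals are 95% Clopper-Pearson intervals that cover counting error only. Against 0 reads, the fold was taken over a floor of 3 reads and is a lower bound with the other count taken as exact. Genes with 3 reads or fewer on both sides have no fold.

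In M4 the copies of HSP and HSF genes were called higher more often than the average gene. Single copies were also called lower less often, but several belong to the same Arabidopsis gene. Summed per Arabidopsis gene, 26.5% were called higher against 16.6% of all. The share called lower was 11.8%, near the 13.7% of all summed genes. Of 72 copies with reads in M4 or H3, 20 were higher in M4 (27.8%) and 4 were lower (5.56%), against 16.2% and 12.7% of all 34286 genes tested. In OvP, 12 of 70 copies were higher than in OvW (17.1%) and 3 were lower (4.29%), against 5.6% and 5.76% of 33743 genes. The members were chosen with earlier results of these data known, so these shares are a description only. Where a pair gave a gene at least 10 reads, the shares called higher were 33.3% of 60 copies and 21.7% of all genes for M4, and 24.0% of 50 copies and 9.44% of all genes for OvP. The median log2 fold of these copies was 0.56 for M4 over H3, with 43 of 60 above 0, and 0.51 for OvP over OvW, with 39 of 50 above 0. Over all genes it was 0.05 and 0.00. With library totals in place of TMM, the median over all genes of M4 and H3 moved from 0.05 to 0.43, and that of the copies, which this scaling shifts by the same amount, to 0.94.

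**Figure D1:**
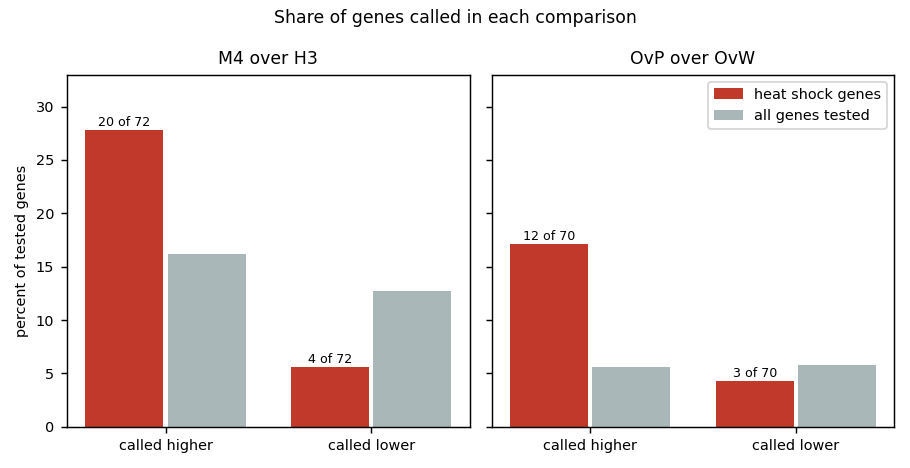
Percent of tested genes called higher or lower in M4 than in H3 (left) and in OvP than in OvW (right), for copies of HSP and HSF genes (red bars, with their counts) and for all genes tested (grey bars). The heat shock genes were called higher in 27.8% against 16.2% in M4, and in 17.1% against 5.6% in OvP.

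Reads were also summed over the copies of each Arabidopsis gene. Of 34 summed genes, 9 were higher and 4 lower in M4 (26.5% and 11.8%), against 16.6% and 13.7% of 19245 Arabidopsis genes. In OvP, 6 of 33 summed genes were higher and 0 were lower, against 6.07% and 6.63% of 19096. Those higher in M4 were *HSP17.6II*, *HSP17.6B*, *BIP2*, *HSP90.7*, *HSFA1D*, *HSFA2*, *HSFA7A*, *HSFB2A* and *ROF2*. Those higher in OvP were *HSP17.6II*, *HSP101*, *HSP70*, *HSFB2A*, *ROF2* and *MBF1C*. By family, the fold of the total reads in M4 over H3 was highest for the small HSPs (2.5, interval 2.3 to 2.72) and the HSFs (2.32, 2.23 to 2.42). It was lower for the HSP90s (1.72, 1.69 to 1.75), for *ROF1*, *ROF2* and *MBF1C* together (1.5, 1.46 to 1.54) and for HSP101 (1.17, 1.04 to 1.31), while the HSP70 total was level (0.973, 0.964 to 0.983). In OvP the small HSPs stood furthest above OvW (3.75, 3.41 to 4.13), and the HSF total differed little (1.29, 1.05 to 1.58). Family totals weigh most on the genes with the most reads. *HSFA2* and *HSFB2A* held 4161 and 2207 of 8957 HSF reads in M4, and 935 and 322 of 3139 in H3. *HSP17.6II* held 932 of 2296 small HSP reads in M4 and 29 of 747 in H3. In *O. violaceus* it held 1612 of 2022 in OvP and 340 of 560 in OvW. Among both the small HSPs and the HSFs, 2 summed genes were called lower in M4.

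**Figure D2:**
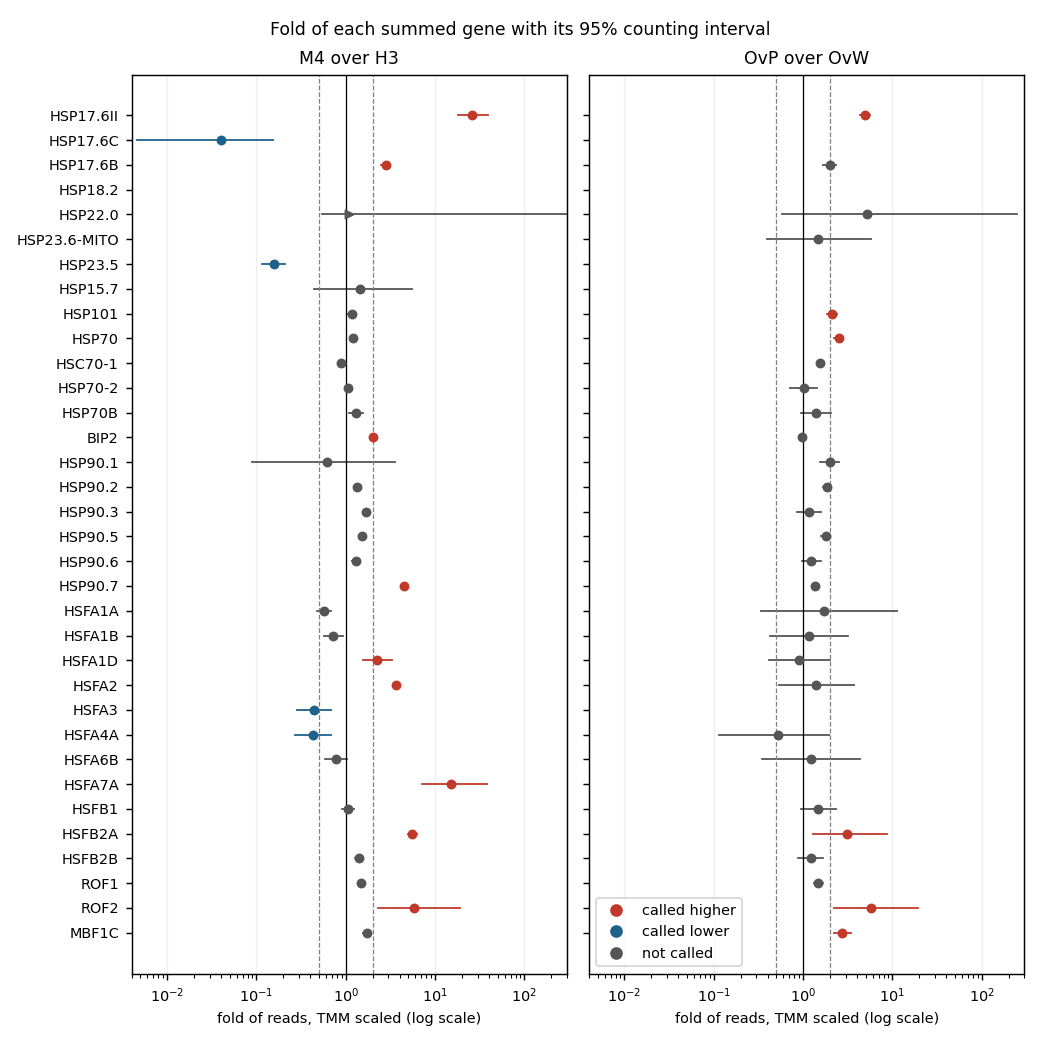
Fold of reads summed over the copies of each Arabidopsis gene, M4 over H3 (left) and OvP over OvW (right), on a log axis. Points are folds, lines are 95% counting intervals, the arrowhead is a fold against 0 reads computed with the floor, dashed lines mark folds of 0.5 and 2, colours show the call, and genes with 3 reads or fewer in both libraries have no point. *HSP17.6II* lies to the right in both panels, and no summed gene is called lower in OvP.

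Among the HSFs, M4 and H3 differed in both directions. *HSFA2* (AT2G26150), in Arabidopsis the factor that prolongs the heat response and is itself induced by heat, had 4161, 935, 12 and 9 reads in M4, H3, OvP and OvW on its single copy, Bra000557. It was 3.62-fold higher in M4 (3.37 to 3.89), with an RPKM of 247 against 52.7, and the *O. violaceus* libraries held too few reads to tell them apart (1.39, 0.536 to 3.72). *HSFA7A* (AT3G51910), another heat-induced class A factor, had 129 reads in M4 against 7 in H3, a fold of 15.0 (7.06 to 38), and 2 and 1 in OvP and OvW. Its neighbouring copies Bra012828 (50 against 3 reads) and Bra012829 (72 against 4) were both called higher in M4. *HSFA1D* (AT1G32330), of the A1 factors that start the response, had 112 reads in M4 and 41 in H3 (2.22, 1.54 to 3.26), nearly all on Bra023258, against 14 in OvP and 16 in OvW.

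The other A1 factors did not share this. *HSFA1A* (AT4G17750, Bra040179) had 235 reads in M4 and 335 in H3, and *HSFA1B* (AT5G16820), mostly on Bra023584, had 121 and 135, neither of them called. *HSFA3* (AT5G03720), which in Arabidopsis acts downstream of DREB2 factors, was lower in M4, with 35 reads against 64 (0.444, 0.286 to 0.681). *HSFA4A* (AT4G18880), linked to oxidative and salt stress, was lower as well, with 31 reads against 58 over its 5 copies (0.434, 0.271 to 0.683). Of these copies, Bra012571 was called lower by itself with 1 read against 10, and Bra020988 held the most reads (17 against 27). With library totals in place of TMM, neither *HSFA3* nor *HSFA4A* was called. *HSFA6B* (AT3G22830), a factor tied to abscisic acid, had 99 reads in M4 and 104 in H3, nearly all on Bra001885.

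Among the class B factors, *HSFB2A* (AT5G62020) stood apart, and it was called higher in both coloured petals. It had 2207 reads in M4 against 322 in H3, a fold of 5.57 (4.95 to 6.28), and all 3 copies were higher. The copy Bra010049 went from 9 reads in H3 to 447 in M4, a fold of 40.4 (21.1 to 88.8), while Bra029291 (1252 against 215) and its neighbour Bra029292 (508 against 98) were 4.73-fold and 4.21-fold higher. In *O. violaceus* the gene had 21 reads in OvP and 7 in OvW (3.12, 1.28 to 8.68), of which Bra010049 took 11 and 1. That call rested on few reads and was lost with an assumed coefficient of variation between plants of 0.1. *HSFB2B* (AT4G11660) had 1412 and 820 reads in M4 and H3, and 86 and 74 in OvP and OvW, with Bra040968 leading in *B. napus* and Bra000749 in *O. violaceus*. *HSFB1* (AT4G36990) had 415 and 318, and 51 and 36, and neither gene was called in either pair. Within *HSFB1* the copies parted, since Bra011735 was higher in M4 (38 against 11 reads) while the leading copy Bra017800 was level (377 against 307). The remaining Arabidopsis HSFs, of which 9 of 10 were matched, gave 0 calls in either pair. Of all summed genes, 16.6% were called higher and 13.7% lower in M4, and 6.07% and 6.63% in OvP. Only 6 of the 9 had 10 or more reads over M4 and H3 together, and 2 over OvP and OvW. The list was thus too short and too low to set beside these shares.

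Of the small HSPs, *HSP17.6II* (AT5G12020), a cytosolic class II protein, had the highest fold of the summed genes in M4 and was the only summed small HSP called higher in both pairs. It had 932 and 29 reads in M4 and H3, and 1612 and 340 in OvP and OvW. The fold was 26.1 (18.1 to 39.2) for M4 over H3 and 4.93 (4.38 to 5.55) for OvP over OvW. Per length, its level was 4.06 RPKM in H3 and 131 in M4, and 366 in OvW and 1881 in OvP. Levels in *B. napus* and *O. violaceus* rest on very different mapped shares of reads and were not tested against each other. All 3 copies were called higher in both pairs. In the order M4, H3, OvP and OvW, Bra006137 had 517, 26, 388 and 116 reads, and Bra008920 had 132, 3, 129 and 27. Bra023360 was without reads in H3 and had 283 in M4, which is at least 76.7-fold more (interval from 61.9), and it had 1095 in OvP against 197 in OvW, a fold of 5.78 (4.96 to 6.76). This copy is the one that led the gene in both *O. violaceus* libraries, with 67.9% and 57.9% of its reads, and it took 30.4% in M4 and 0% in H3, where 29 reads allow a share of up to 11.9%. Only those reads from the added *O. violaceus* chromosomes that mapped to the *B. rapa* genome would be counted. The paper reports a far smaller mapped share for OvP and OvW than for M4 and H3. Any such reads in M4 cannot be separated from *B. napus* reads in these counts.

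The class I small HSPs moved apart from each other. *HSP17.6B* (AT2G29500) had 1290 reads in M4 and 374 in H3 (2.8, 2.5 to 3.15), and 397 in OvP and 208 in OvW, where its fold of 1.98 (1.67 to 2.36) fell just short of a call. Nearly all of these reads lay on Bra018383, and its neighbour Bra018384 had 3 reads, all in OvP. *HSP17.6C* (AT1G53540, Bra018216) went the other way, with 2 reads in M4 against 41 in H3, a fold of 0.0396 (0.00464 to 0.153). *HSP18.2* (AT5G59720) had between 0 and 2 reads in each library over 3 copies.

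The small HSPs of organelles had few reads, apart from *HSP23.5* in H3. *HSP23.5* (AT5G51440), a mitochondrial protein, had 57 reads in M4 against 296 in H3, a fold of 0.156 (0.116 to 0.208), and 0 in OvP and 2 in OvW. The difference came from Bra029174, with 42 against 292 reads, since Bra028253 had 15 against 4 and was not called. The other mitochondrial gene, *HSP23.6-MITO* (AT4G25200, Bra013872), had 0 and 1 reads in M4 and H3 and 7 and 5 in OvP and OvW. The ER gene *HSP22.0* (AT4G10250) had 4, 0, 5 and 1 over the copies Bra000703 and Bra027999, and the peroxisomal gene *HSP15.7* (AT5G37670, Bra028141) had 9, 5, 0 and 0. Differences among these low genes were not detectable at this depth.

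**Figure D3:**
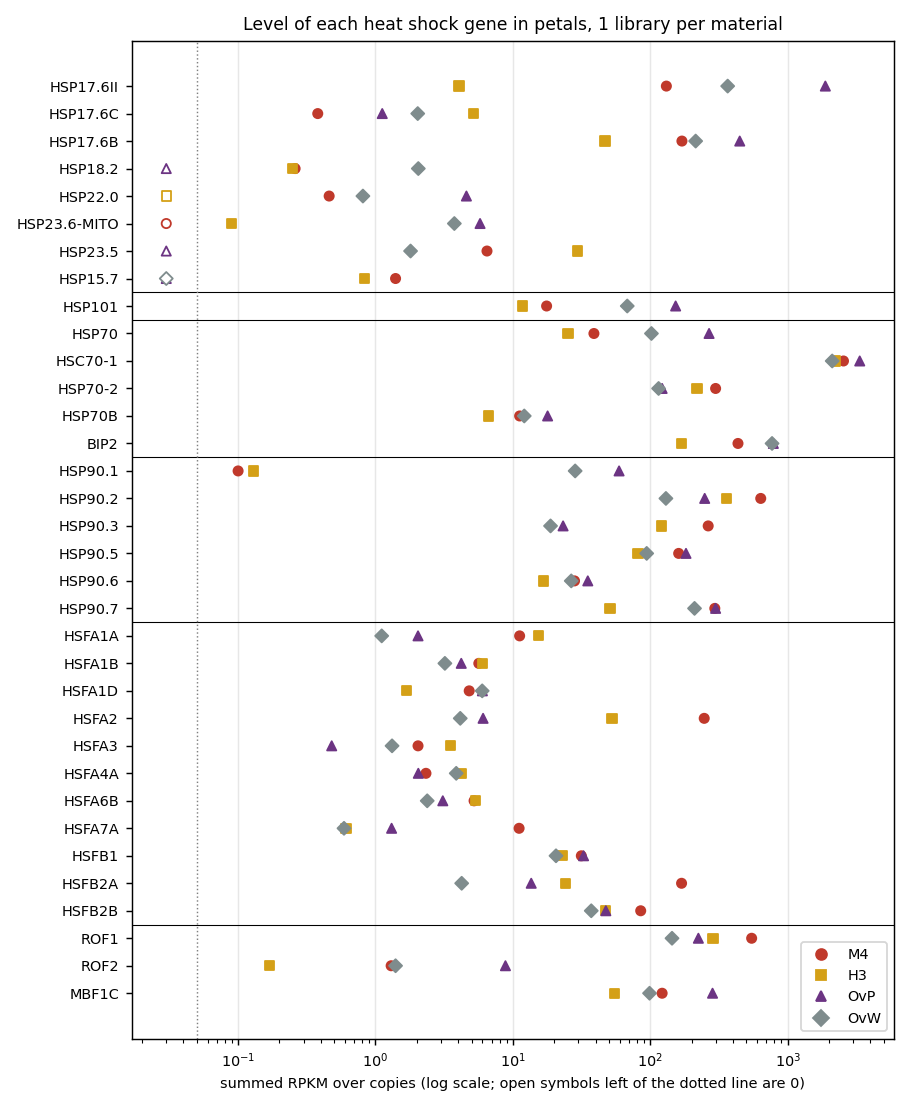
Level of each Arabidopsis gene as RPKM summed over its copies, on a log axis, in the libraries of M4 (red circles), H3 (yellow squares), OvP (purple triangles) and OvW (grey diamonds). Open symbols left of the dotted line are 0, and horizontal lines part the families. *HSC70-1* has the highest level in all 4 libraries, and *HSP17.6II* runs from 4.06 in H3 to 1881 in OvP. Levels were not tested between the species.

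*HSP101* (AT1G74310), the cytosolic disaggregase needed for acquired heat tolerance in Arabidopsis, was higher in OvP. It had 768 reads in OvP and 376 in OvW (2.12, 1.87 to 2.41), and 756 in M4 and 527 in H3 (1.17, 1.04 to 1.31, not called). The excess in OvP was carried by Bra003807 (646 against 263 reads, 2.55-fold), whereas Bra015922 was level (122 against 113).

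The heat-inducible cytosolic HSP70 gene (AT3G12580, itself named *HSP70*) was, like *HSP101*, higher in OvP and not called in M4. It had 979 reads in OvP and 409 in OvW, a fold of 2.49 (2.21 to 2.80), and both copies, Bra038734 (892 against 372) and Bra001457 (87 against 37), were called higher. In *B. napus* it had 1192 reads in M4 and 800 in H3 (1.21, 1.11 to 1.33, not called). The second heat-inducible gene, *HSP70B* (AT1G16030), was not called as a sum in either pair, with 352 and 219 reads in M4 and H3 and 66 and 49 in OvP and OvW. Its copy Bra026084 was higher in M4 (154 against 38, 3.29-fold), while Bra016644, which held the most reads, was not (198 against 181).

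*HSC70-1* (AT5G02500), a constitutive cytosolic HSP70, had the highest level of the group in every library, between 2110 RPKM in OvW and 3347 in OvP (2549 in M4 and 2239 in H3). Its sum over 8 copies was not called in either pair, with 72076 reads in M4 against 66533 in H3 (0.880, 0.871 to 0.890) and 11307 in OvP against 7597 in OvW (1.55, 1.5 to 1.59). Beneath this sum the *O. violaceus* petals differed in the copies on which the reads fell. Bra009583 had 8750 reads in OvP and 2570 in OvW, a fold of 3.54 (3.39 to 3.70). Bra035909 had 377 in OvP and 2911 in OvW, a fold of 0.135 (0.121 to 0.150). Bra013046 (161 against 750) and Bra024699 (73 against 243) were also lower in OvP, and these 3 were the only copies of the group called lower there. Bra009583 thus took 77.4% of the *HSC70-1* reads in OvP (76.6 to 78.2) and 33.8% in OvW (32.8 to 34.9), and Bra035909 took 3.33% and 38.3%. In *B. napus* the shares of these copies were close together, 38.6% in M4 and 36.9% in H3 for Bra009583 and 18.4% and 22% for Bra035909. How reads that match several copies were counted is not given, so similar copies may not be fully separated by these counts. Whether the shift lies in expression or in how *O. violaceus* reads fall on *B. rapa* copies was not tested. *HSP70-2* (AT5G02490, Bra013045) had 1403 and 1078 reads in M4 and H3 and 67 and 69 in OvP and OvW, with no call.

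*BIP2* (AT5G42020), the HSP70 of the ER lumen, was higher in M4 and level in *O. violaceus*. It had 13965 reads in M4 against 5669 in H3, a fold of 2.0 (1.94 to 2.07) that lay at the threshold and was not called with DESeq2 size factors. In OvP and OvW it had 2978 and 3204 reads (0.966, 0.919 to 1.02). The leading copy in all 4 libraries was Bra022819, with 7923 against 3014 reads in *B. napus*, and Bra015047 was called as well (2722 against 1034). The last of the 4 copies, Bra028521, held fewer reads in M4 and H3 (454 and 275) than in OvP and OvW (874 and 975).

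Of the HSP90s, the ER member showed the clearest difference. *HSP90.7* (AT4G24190), known in Arabidopsis as SHEPHERD, had 11715 reads in M4 against 2126 in H3, a fold of 4.48 (4.28 to 4.69), and both copies were higher (Bra013774 with 11510 against 2094, Bra010500 with 205 against 32). In *O. violaceus* it had 1375 reads in OvP and 1058 in OvW (1.35, 1.25 to 1.46, not called). The chloroplast gene *HSP90.5* (AT2G04030) had 6070 and 3218 reads in M4 and H3 (1.53, 1.47 to 1.60) and 711 and 414 in OvP and OvW (1.78, 1.58 to 2.02). Its copy Bra026525 was called higher in OvP (219 against 98), while Bra025142 led in *B. napus* and Bra017360 in *O. violaceus*. The mitochondrial *HSP90.6* (AT3G07770), led by Bra040027 in *B. napus* and Bra029677 in *O. violaceus*, had 1081, 678, 149 and 125 reads in M4, H3, OvP and OvW, with no call.

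The cytosolic HSP90s showed no called sum, yet their copies differed. *HSP90.2* (AT5G56030), a constitutive member, had 20263 reads in M4 and 12424 in H3 (1.33, 1.3 to 1.36), and 982 in OvP and 558 in OvW (1.83, 1.65 to 2.03). Bra035593 (8878 against 3271) and Bra035599 (3885 against 781) were 2.21-fold and 4.04-fold higher in M4, but Bra028924 had fewer reads there (4207 against 6329, 0.540). In *O. violaceus*, Bra028924 was the copy called higher in the coloured petal, with 532 reads in OvP and 151 in OvW (3.66, 3.05 to 4.42). The copy of *HSP90.2* with the most reads was therefore Bra035593 in M4, Bra028924 in H3 and OvP, and Bra028948 in OvW. As for *HSC70-1*, similar copies may not be fully separated by these counts. Whether this lies in expression or in how reads fall on *B. rapa* copies was not tested. *HSP90.3* (AT5G56010, Bra028952) had 8953 and 4297 reads in M4 and H3 (1.69, 1.63 to 1.76) and 91 and 81 in OvP and OvW, with no call. The heat-inducible *HSP90.1* (AT5G52640, Bra003119) was almost without reads in *B. napus*, with 3 in M4 and 4 in H3, although these libraries were the deepest. It had 204 reads in OvP and 107 in OvW (1.98, 1.56 to 2.53, not called), at 59.3 and 28.4 RPKM against 0.10 and 0.13 in M4 and H3. *HSFA2* had the opposite order, with 247 and 52.7 RPKM in *B. napus* and 6.07 and 4.14 in *O. violaceus*. The species were not tested against each other, since their reads mapped to the *B. rapa* genome to very different extents.

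**Figure D4:**
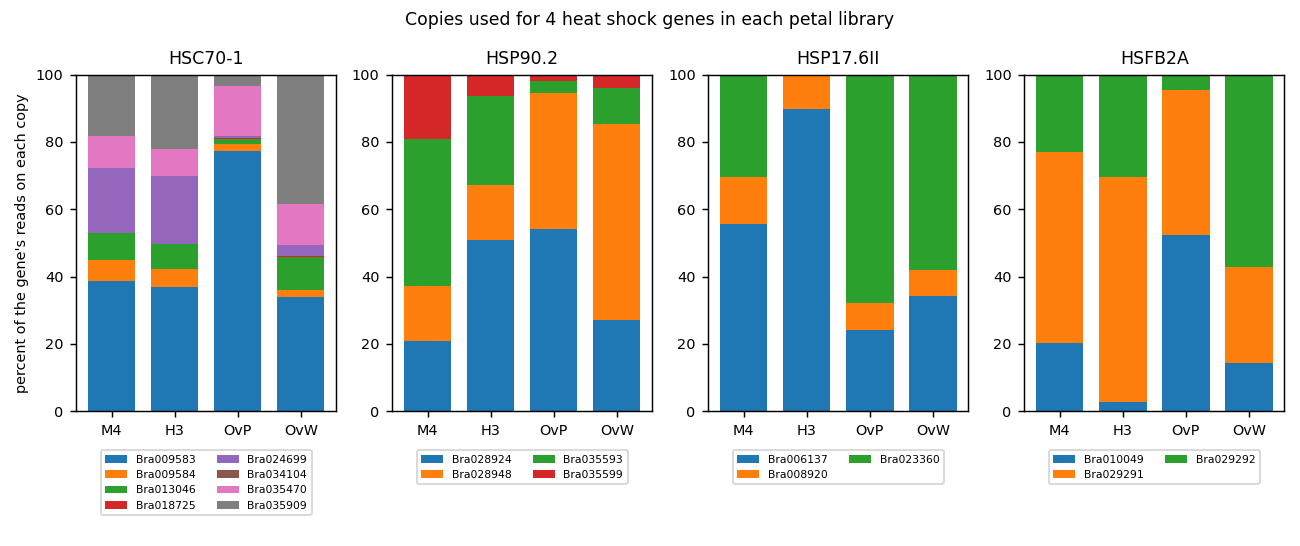
Percent of the reads of *HSC70-1*, *HSP90.2*, *HSP17.6II* and *HSFB2A* that fell on each copy (colours, named under each panel) in the libraries of M4, H3, OvP and OvW. In *HSC70-1*, Bra009583 takes 77.4% in OvP and 33.8% in OvW, and the *HSFB2A* bars rest on 21 reads in OvP and 7 in OvW.

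The HSP90 partners and the coactivator leaned the same way in both pairs. *ROF2* (AT5G48570, Bra037477), a heat-induced peptidyl-prolyl isomerase, had 36 reads in M4 and 5 in H3 (5.85, 2.29 to 19.1), and 28 in OvP and 5 in OvW (5.82, 2.22 to 19.3). Its relative *ROF1* (AT3G25230, Bra013224), which binds HSP90, had 15033 and 8244 reads (1.48, 1.44 to 1.52) and 722 and 509 (1.47, 1.31 to 1.65), with no call. *MBF1C* (AT3G24500, Bra015048), a heat-induced transcriptional coactivator, was higher in OvP with 297 reads against 113 (2.73, 2.19 to 3.42), and had 1094 against 515 in M4 and H3 (1.73, 1.55 to 1.92, not called).

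At the level of single copies, 5 were called higher in both pairs, namely the 3 copies of *HSP17.6II*, Bra010049 of *HSFB2A* and the copy of *ROF2*. These were 7.46% of the 67 copies tested in both pairs, against 1.8% of 30588 genes, and 3 of the 5 belong to 1 Arabidopsis gene. The copies were also called higher more often in each pair by itself (28.4% and 17.9%, against 17.2% and 6.02%), and an overlap beyond that was not tested. No copy was called lower in both or in opposite directions. Of all 30588 genes, only 1.54% were called lower in both pairs. With 67 copies, the absence of such a copy could not be told apart from that share. Of the 22 Arabidopsis genes with 2 or more copies, 13 had at least 20 reads in each library. The copy with the most reads was the same in M4 and H3 for 12 of these, in OvP and OvW for 10, in M4 and OvP for 8, and in all 4 libraries for 6. Where only more than 3 reads on a copy in every library were asked for, 17 genes remained. Those counts were then 16, 11, 9 and 7. The copies were spread over all 10 chromosomes of the *B. rapa* A genome and 1 scaffold, with 20 of 75 (26.7%) on chromosome 3, which holds 14.0% of all genes in the sheet, and 5 of 75 on chromosome 9, which holds as large a share. Of 6 pairs of copies with consecutive identifiers, 4 belonged to the same Arabidopsis gene.

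The folds of both pairs were set against each other with an exact test of the reads. Of 33 summed genes tested, 4 differed (12.1%), against 22.5% of all Arabidopsis genes, so a difference between the pairs was not more frequent among HSP and HSF genes than in general. The fold of M4 over H3 was larger for *HSP17.6II* (by 5.30 times, 3.59 to 8.10), *HSP90.7* (3.32, 3.02 to 3.64) and *BIP2* (2.07, 1.95 to 2.20). The fold of OvP over OvW was larger for *HSP70* (ratio 0.487, 0.419 to 0.565). For *HSFA2* the ratio of 2.61 (0.968 to 6.77) was not called, with 12 and 9 reads in OvP and OvW.

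The genes that work beside these chaperones were looked at as lists. Of 11 genes for protein folding in the ER, 4 were higher in M4 and 0 lower, against 16.6% and 13.7% of all summed genes, and the median log2 fold was 0.73. With 11 genes, the absence of a lower call could not be told apart from that 13.7%. The ER members *BIP2* and *HSP90.7* were higher as well. *BIP3*, the stress-induced BiP, had 61 reads in M4 and 2 in H3 (24.8, 6.57 to 209), the calreticulin gene *CRT1B* 4586 and 584 (6.38, 5.85 to 6.97) and *CRT1A* 8711 and 2562 (2.76, 2.64 to 2.89). The ER J-domain gene *ERDJ3A* was the other one called. The remaining 7 were not called. Among these, *bZIP60*, a factor of the ER stress response, had 1622 reads in M4 against 2314 in H3 (0.57). *bZIP28* had 1076 against 1168 (0.749), and the rest leaned higher in M4. In OvP, 2 of the 11 were called higher, *PDIL1-1* (264 against 88, 3.12) and *CRT3* (404 against 153, 2.74). There *bZIP60* was called lower with 6 reads against 21 (0.297, 0.098 to 0.760). Of all summed genes, 6.07% were called higher and 6.63% lower in OvP.

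Of 21 matched co-chaperone and organelle chaperone genes, 1 was called higher and 1 lower in M4, and 1 higher and 0 lower in OvP. Over all summed genes the shares were 16.6% and 13.7% in M4, and 6.07% and 6.63% in OvP. The median log2 fold of the list was -0.05 for M4 over H3 and 0.02 for OvP over OvW. *P23-2*, an HSP90 co-chaperone, was higher in M4 with 130 reads against 16 (6.60, 3.92 to 11.9), and *AHA1-like*, named after the activator of the HSP90 ATPase, was lower with 625 against 1248 (0.407, 0.369 to 0.448). *HOP3*, which links HSP70 to HSP90, was higher in OvP with 551 against 128 (4.47, 3.68 to 5.46). Of 4 matched heat-responsive genes that are not chaperones, 2 were higher in M4, a list too short to set beside the 16.6% of all summed genes. *GOLS1*, of galactinol synthesis, had 38 reads in M4 against 0, which is at least 10.3-fold more (interval from 7.97), and *DREB2A*, a stress transcription factor, had 179 and 31 (4.69, 3.19 to 7.11). Neither was called in *O. violaceus*, where *GOLS1* had 0 and 4 reads and *DREB2A* 2 and 7.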

How the data were processed

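The authors sequenced petal RNA of each of the 4 materials in 1 library. Clean reads were mapped by the authors to the *B. rapa* genome with TopHat, allowing at most 2 mismatches. The deposited counts are raw reads per gene, and the deposited RPKM values are levels from Cufflinks and Cuffdiff, which the authors call FPKM. DESeq is also named in the submitters' processing notes. Not given in the sources used here are how reads were counted, whether by strand, the genome version and the versions of these tools. Gene length in the read sheet was deposited but not used, and 0 columns of values were left unmapped.

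The members and lists were chosen with earlier results of these data known. Reads were tested per copy and as sums over the copies of each Arabidopsis gene, over every gene to which a pair gave 1 read or more, with edgeR 4.0.16 (binomTest, TMM) in R 4.3.3, with Python 3.11.15, pandas 2.3.3, numpy 2.4.6, SciPy 1.17.1 and matplotlib 3.10.9. The p-values are unadjusted, and the scripts were tested on simulated data. Log2 folds for medians used a prior count of 0.5 over copies with 10 or more reads. A count of 0 allows up to 3 reads, which is 0.194 (M4), 0.182 (H3), 1.62 (OvP) and 1.47 (OvW) CPM. Folds between pairs were compared by a conditional exact test. Copies named are the 8 highest and 8 lowest called copies of each pair, the leading copy of each gene, and those with 0 reads against 20 or more. Other copies of the same genes, *ERDJ3A* and *bZIP28* are named after their values were seen. Genes outside the group are named where their sum was called and among the 3 highest or 3 lowest of its list. Alternatives were total reads, DESeq2 1.42.0 size factors, an assumed biological coefficient of variation of 0.1, 0.2 or 0.4, a minimum of 10 reads, adjusted p, RPKM folds, the leading copy alone and a prior count of 2. The minimum of 20 reads for naming a leading copy was chosen after seeing the data. A planned search of promoter motifs was not run.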

Additional observations from a re-analysis of the deposited data

Results flagged for a closer look

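The fold of the coloured over the uncoloured petal differed between the species for 4 summed genes in the exact test of the reads. These were 12.1% of the 33 tested, below the 22.5% of all Arabidopsis genes that differed in the same test. The fold of M4 over H3 divided by that of OvP over OvW was 5.30 for *HSP17.6II* (26.1 against 4.93), 3.32 for *HSP90.7* (4.48 against 1.35), 2.07 for *BIP2* (2.0 against 0.966) and 0.487 for *HSP70* (1.21 against 2.49). The test holds counting error only and has no replicate check.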

How the results depend on the processing

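No called summed gene changed direction under the alternatives run. If plants of a material were taken to vary by a coefficient of 0.4, the copies called fell to 7 higher and 2 lower in M4 and to 1 higher and 1 lower in OvP, and the sums to 3 higher and 2 lower in M4 and 1 higher in OvP. At 0.2, 18 copies and 7 sums were higher in M4, and 2 copies and 2 sums were lower. In OvP, 10 copies and 4 sums were then higher. The sums no longer called higher at 0.2 were *BIP2* and *HSFA1D* in M4 and *HSP101* and *HSFB2A* in OvP. With total reads, 2 copies and 2 sums were lower in M4 and the median log2 fold of the copies was 0.94. Folds of the deposited RPKM, which have no test, passed the threshold for 33 copies higher and 7 lower in M4 and 22 higher and 12 lower in OvP, for 10 sums higher and 3 lower in OvP, and gave a median of 0.93 in M4. Of the summed genes, 20 of 32 in M4 and H3 and 19 of 28 in OvP and OvW kept their call status under every alternative run. Still called at 0.4 were *HSP17.6II*, *HSFA7A* and *HSFB2A* (higher) and *HSP17.6C* and *HSP23.5* (lower) in M4, and *HSP17.6II* in OvP.

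No paired analysis was possible because each material had 1 library. Depth limits the HSFs of *O. violaceus*, whose 25 copies together held 213 reads in OvP and 172 in OvW. Which differences would recur between plants cannot be told from 1 library each.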
